A study of Mus musculus with 2 samples.

Results

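The thioredoxin-interacting protein Txnip, its arrestin-domain relatives, the thioredoxins and the Mondo/ChREBP glucose sensors were examined in mouse cavernous pericytes kept in high or normal glucose. The set comprised 10 genes: Txnip, Arrdc3, Arrdc4, Mlxip, Mlxipl, Mlx, Txn1, Txn2, Klf10 and Pklr. They were found as the array's gene probes whose RefSeq accession belonged to one of these genes, which gave 14 probes for all 10 members, out of 20887 genes named in this way. The cells were primary pericytes, cells that surround capillaries and can contract, taken from the corpus cavernosum of C57BL/6 mice. One group was kept for 72 h in high glucose, labelled 30 mmol, and the other for 72 h in normal glucose, labelled 5 mmol, with no volume stated. Both were grown in DMEM with fetal bovine serum, antibiotics and human pigment epithelium-derived factor. RNA of 3 samples was pooled per condition and hybridised to 1 array, so there was no replicate check and no test was made. An osmotic control was not used here.

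Txnip binds reduced thioredoxin and, like its relatives of the alpha-arrestin family, takes membrane proteins, glucose transporters among them, into the cell. Its gene is a textbook target of MondoA (Mlxip) and ChREBP (Mlxipl), transcription factors that respond to glucose phosphates, pair with Mlx and bind carbohydrate response elements, which are pairs of E-box-like motifs. High glucose is known to raise Txnip transcripts in several cell types, pancreatic beta cells and mesangial cells among them.

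The bases before the start sites of Txnip and Arrdc4 are shown because these genes are the known direct targets of the Mondo factors among the arrestins, and the upstream start of Mlxipl because the factor also controls its own gene. Sequences are from RefSeq, build GRCm38.p6, 5′ to 3′ along the gene. Each is the 250 bases that end at the base before the start of transcription, and capitals mark the motif found.
Txnip, chr3:96557707-96557956, plus strand: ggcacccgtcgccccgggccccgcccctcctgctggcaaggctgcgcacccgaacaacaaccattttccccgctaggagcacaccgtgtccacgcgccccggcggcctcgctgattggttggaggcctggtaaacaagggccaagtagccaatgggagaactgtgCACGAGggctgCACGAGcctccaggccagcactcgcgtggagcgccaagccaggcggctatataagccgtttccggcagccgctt
Arrdc4, chr7:68749239-68749488, minus strand: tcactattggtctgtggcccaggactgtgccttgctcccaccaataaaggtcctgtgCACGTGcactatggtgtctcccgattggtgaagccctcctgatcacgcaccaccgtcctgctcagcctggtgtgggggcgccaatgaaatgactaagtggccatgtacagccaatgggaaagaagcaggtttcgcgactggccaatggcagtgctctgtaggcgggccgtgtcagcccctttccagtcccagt
Mlxipl, upstream start, chr5:135089640-135089889, plus strand: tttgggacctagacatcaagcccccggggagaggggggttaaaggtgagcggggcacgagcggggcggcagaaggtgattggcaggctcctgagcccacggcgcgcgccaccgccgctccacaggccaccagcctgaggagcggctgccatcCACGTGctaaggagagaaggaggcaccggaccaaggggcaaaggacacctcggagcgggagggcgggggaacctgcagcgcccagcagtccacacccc

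The Txnip window held 1 pair of E-box-like copies in the layout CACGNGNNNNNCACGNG, searched on both strands. It began 85 bases before the start and read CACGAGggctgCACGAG. Of 32851 windows of this length in the table, 15 (0.0457%) held such a pair. The E-box CACGTG, which reads the same on both strands and can itself be a copy within the pair, stood in the windows of Arrdc4, the upstream start of Mlxipl, and Mlx, and in 6.02% of all windows. It began 193 bases before the start in Arrdc4, 98 in Mlxipl and 40 in Mlx. The Mlx window, chr11:101087040-101087289, lay inside the annotated gene, which begins at 101086707 on the plus strand. The start used for Mlx is thus downstream of the first base of the gene, and the Mlxip window also lay inside its gene. So did the most downstream windows of Arrdc3, Mlxipl and Pklr. The middle Arrdc3 window and the upstream Pklr window overlapped their genes in part. Of 13 windows of 9 members, 3 held the E-box and 1 the pair; Klf10 had none in the table. A match is a description of the letters, not evidence of binding.

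Of the 14 probes 12 stood well above background on each array with no saturation, which gave values for 9 of the 10 genes. Differences between high and normal glucose were small. None of the 9 measured members differed by 2-fold or by 1.5-fold, where 0.917% and 2.81% of the 14176 measured genes on these arrays did. One of 9, Mlxipl, was at least 1.2-fold higher and none was 1.2-fold lower. Of all measured genes 6.8% were 1.2-fold higher and 5.51% lower, 12.3% together, beside the members' 11.1%. That background is carried by dim genes: 40.8% of genes with signals below 128 passed 1.2-fold, 6.26% from 512 to 4096 and 2.44% above 4096, and every measured member but Mlxip lay above 512 by its brightest probe. Among genes brighter than the median gene, 3.13% passed, and 1 of 7 members did. With no scaling between arrays Mlxipl was at 0.21, short of 1.2-fold, and Mlx at -0.28, past it in the lower direction. The median log2 ratio of high over normal glucose was 0.02 over the members and -0.01 over all measured genes. Ratios were taken after each array's 75th percentile had been set equal, which raised the high glucose values by a small common amount. The high glucose array had 57.6% and the normal glucose array 56.3% of 59305 gene spots well above background. The arrays lay on 1 slide, and their number limits the precision.

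The only error that could be read was that between spots of 1 probe within the arrays. For probes printed at least 10 times the SD of the log2 ratio over spots had a median of 0.10 at signals of 128 to 512, 0.04 from 512 to 4096 and 0.03 above 4096, over 47, 101 and 94 probes. Of the 12 measured member probes 6 lay within 2 such SD of no difference and 6 beyond. Over all measured genes of these bands the median absolute log2 ratio was 0.12, 0.07 and 0.05, each above 1 such SD. The share of all genes beyond 2 SD between spots was not counted, so 6 of 12 cannot be read as a trait of the members. This SD holds neither the difference between pools nor that between cultures, so a ratio beyond it is a difference between these 2 arrays. Over 3632 genes with at least 2 measured probes, the ratios of the 2 brightest differed by a median of 0.09 and a 95th percentile of 0.51 on the log2 scale.

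**Figure D1:**
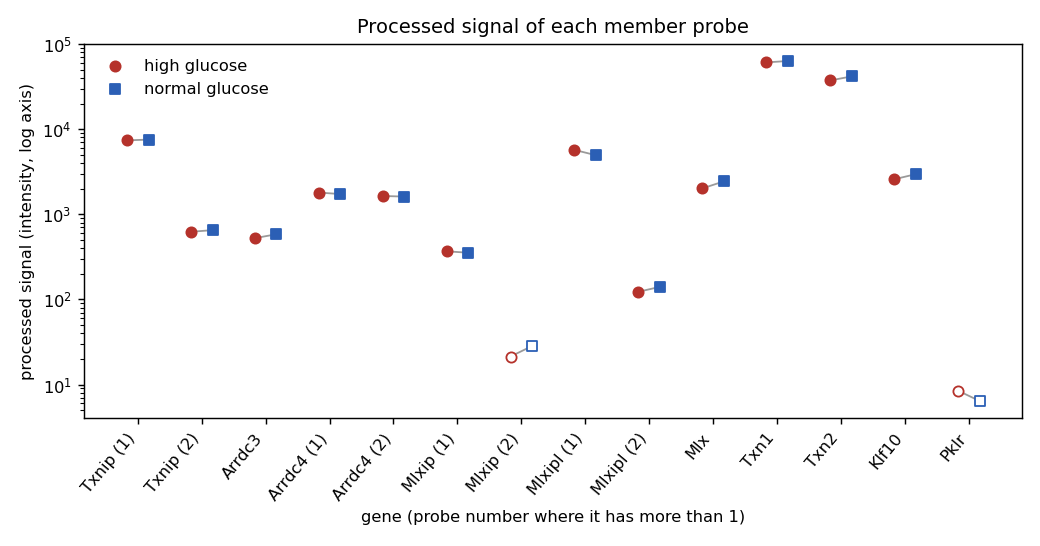
Processed signal (intensity, log axis) of each of the 14 probes on the high glucose array (red circles) and the normal glucose array (blue squares), 1 array each. Open symbols are probes not well above background on either array. Both arrays gave similar signals for each filled probe, from 123 to 63200, and the open ones, Mlxip probe 2 and Pklr, lay between 6.39 and 28.4.

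Txnip was nearly level between the conditions on each of its probes. Probe A_51_P438805 had a signal of 7386 in high glucose, against 7534 in normal glucose. Probe A_55_P2006255 had 623 in high glucose, against 651 in normal glucose. As deposited, both probes were slightly dimmer on the high glucose array, a change of -1.98% and -4.37%. After scaling, their log2 ratios were 0.05 and 0.02, or 1.04-fold and 1.01-fold. Each was within 2 SD between spots of 0: the interval of 2 SD ran from -0.01 to 0.11 for the first and from -0.07 to 0.10 for the second. The probes differed from each other by 0.04, less than in 77.1% of genes with at least 2 measured probes. Of all measured genes 63.8% had a ratio farther from 0 than the first probe and 88.0% farther than the second. The direction of so small a value followed the scaling: centred on each array's median, the first probe had -0.01 and the second -0.05. Dim spots around the first probe were shifted by -0.28 on the log2 scale and those around the second by 0.25, and their part in the ratios was not tested.

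Arrdc4, an alpha-arrestin that like Txnip is a known target of MondoA, was the member with repeat spots. One of its probes, A_51_P111612, was printed 10 times on each array. The spots ran from 1564 to 1712 with a median of 1655 in high glucose, and from 1501 to 1669 with a median of 1620 in normal glucose. Their means were 1641 ± 54.6 in high glucose and 1614 ± 46.4 in normal glucose (SD, 10 spots each). The ranges of the signals overlapped, and 7 of 10 spots were brighter on the high glucose array. After scaling, 10 of 10 spots had a log2 ratio above 0, from 0.04 to 0.14, with a mean of 0.10 and an SD of 0.04. These spots are repeat readings of the same pools. The other probe, A_55_P2101191, had a signal of 1800 in high glucose and 1728 in normal glucose, a log2 ratio of 0.14. Both of its probes thus had slightly higher scaled values in high glucose. Both kept this direction under each of the 9 other settings, with a lowest value of 0.02. Of genes with signals of 512 to 4096, 33.6% had a ratio farther from 0 than A_51_P111612 and 21.7% farther than A_55_P2101191.

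**Figure D2:**
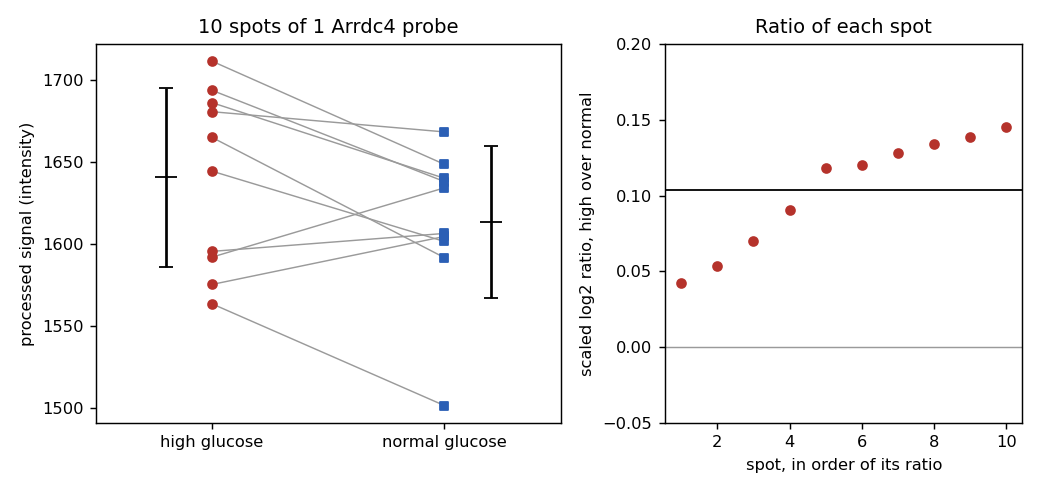
Left, processed signal (intensity) of the 10 spots of Arrdc4 probe A_51_P111612 on the high glucose array (red) and the normal glucose array (blue), with lines joining the same array position and bars for mean and SD over spots. Right, the scaled log2 ratio of each spot in order of size, with their mean of 0.10 as a black line; the signals overlap between arrays and the lowest scaled ratio is 0.04.

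Arrdc3, an alpha-arrestin known for the trafficking of beta-adrenergic receptors, had 1 probe. Its signal was 524 in high glucose, against 583 in normal glucose. The log2 ratio was -0.07, within 2 SD between spots, whose interval ran from -0.16 to 0.01. It stayed below 0 under each of the 9 other settings, between -0.15 and -0.07. Arrdc3 and Arrdc4 thus had ratios of opposite sign, each smaller than the 1.2-fold that 12.3% of genes passed. Dim spots around the Arrdc3 probe were shifted by -0.13, and their part in its ratio was not tested.

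The thioredoxins, the small proteins that reduce disulphides and that Txnip binds, were bright on both arrays. Txn1, the cytosolic form, had a signal of 60805 in high glucose and 63200 in normal glucose. Its log2 ratio was 0.02, within 2 SD between spots, and -0.04 with median centring. Txn2, the mitochondrial form, had 37323 in high glucose, against 41723 in normal glucose. Its log2 ratio was -0.08, 1.06-fold lower, and 2.54 times the SD between spots at that signal. Of genes with signals above 4096, 29.9% had a ratio farther from 0 than Txn2 and 73.4% farther than Txn1. Dim spots were shifted by -0.11 around the Txn1 probe and by -0.15 around that of Txn2. Their part in the ratios was not tested.

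Among the sensors, Mlxipl gave the largest value of the set and also the least settled one. Mlxipl encodes ChREBP, best known from liver, fat and islets. Probe A_55_P2045158 had a signal of 5704 in high glucose, against 4931 in normal glucose. Its log2 ratio was 0.29, 1.22-fold higher and 9.08 times the SD between spots. Of the 4711 genes with signals above 4096, 1.95% had a ratio farther from 0. The second probe, A_55_P2119957, carries the same accession and had a signal of 123 in high glucose, against 141 in normal glucose. Its log2 ratio was -0.11, within 2 SD between spots, whose interval ran from -0.32 to 0.09. The probes thus differed by 0.40, more than in all but 7.96% of genes with at least 2 measured probes. The first probe's ratio kept its sign under the 9 other settings, at 0.21 to 0.30, and the second kept the opposite sign, at -0.19 to -0.04. The median over both probes was below 1.2-fold. Mlxipl has 2 start sites in the RefSeq table, and which transcripts each probe reads is not given in the sources used here.

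Mlxip, or MondoA, the form of the sensor known from muscle and many other tissues, was measured on 1 of its 2 probes. Probe A_51_P246727 had a signal of 367 in high glucose, against 353 in normal glucose. The log2 ratio was 0.14, within 2 SD between spots at this dimmer signal. Probe A_55_P2153907, of another accession, had 21.3 in high glucose and 28.4 in normal glucose, not well above background on either array, so no ratio was read.

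Mlx, the shared partner of Mlxip and Mlxipl, had the lowest ratio of the set. Its signal was 2013 in high glucose, against 2439 in normal glucose. The log2 ratio was -0.20, 1.15-fold lower and 4.49 times the SD between spots. Of genes with signals of 512 to 4096, 11.4% had a ratio farther from 0. The value was -0.18 from median pixels and lay between -0.28 and -0.18 under the 9 other settings. Mlx rested on 1 probe, and dim spots around it were shifted by -0.04. The sensor Mlxipl on its first probe and the partner Mlx thus had ratios of opposite sign.

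Klf10 and Pklr stand for the targets of ChREBP. Klf10, a Krüppel-like repressor first found as an early gene of TGF-beta, had a signal of 2576 in high glucose, against 2962 in normal glucose. Its log2 ratio was -0.12, 1.09-fold lower and 2.77 times the SD between spots, with 27.2% of genes of like signal farther from 0. Pklr, the pyruvate kinase of liver and red blood cells, had 8.46 in high glucose and 6.39 in normal glucose, not well above background on either array. No ratio was read for it. Markers of red blood cells were likewise not well above background (0 of 3 genes), and of liver and islet markers 1 of 6 was, Ins2, at 253 in high glucose and 219 in normal glucose, with Alb, Apoa1, Ttr, Ins1 and Gcg not.

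**Figure D3:**
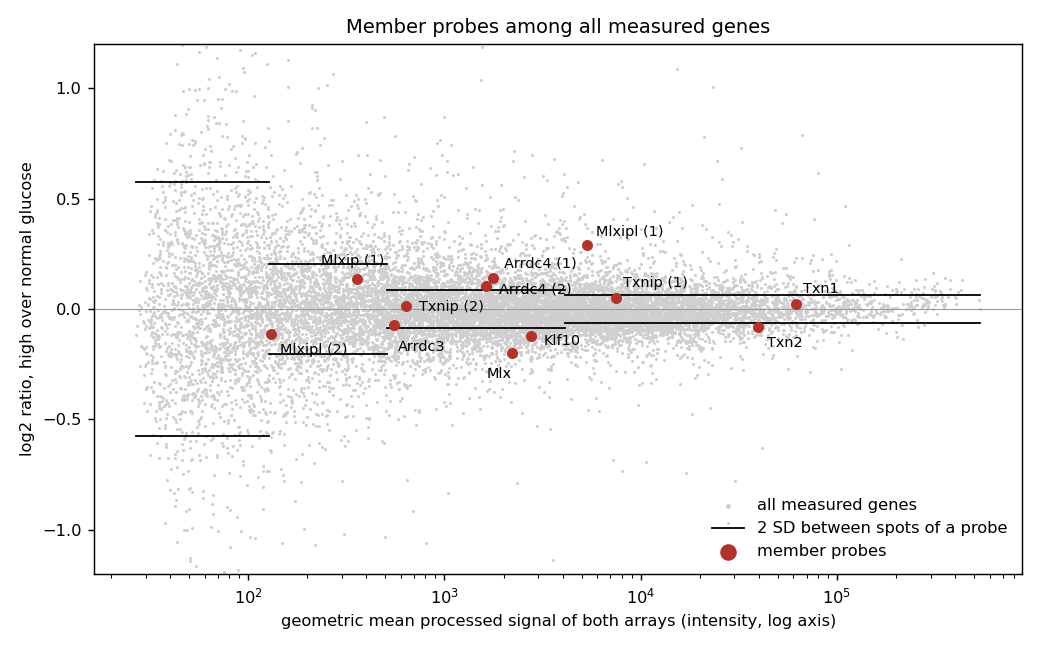
Log2 ratio of high over normal glucose against the geometric mean signal of both arrays (intensity, log axis) for the 12 measured member probes (red) and all 14176 measured genes (grey), with black lines at 2 SD between spots of 1 probe. The axis leaves out 87 genes beyond 1.2. Mlxipl probe 1 at 0.29 and Mlx at -0.20 lie farthest from 0 among the members, and 6 of the 12 lie within the lines. The share of all genes within the lines was not counted.

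Set side by side, 7 of the 12 measured probes had a ratio above 0 and 5 below. By gene 5 of 9 were above 0, where 6631 of the 14176 measured genes were. The members ran from -0.20 for Mlx to 0.29 for Mlxipl, while the central 95% of all measured genes ran from -0.42 to 0.47. That range is not matched for brightness. The SD of the log2 ratio over genes was 0.44 below 128, 0.16 from 512 to 4096 and 0.14 above 4096. Every measured member but Mlxip lay above 512 by its brightest probe. The sign of 9 of the 12 probes was the same under all 10 settings. The exceptions were both Txnip probes and Txn1, which lay below 0 with median centring and with no scaling between arrays. The deposited value table and the removal of outlier spots could hardly move any member probe. No probe reached 1.5-fold under any setting, the extremes being -0.28 and 0.30. Less the median of all genes under the same setting, the first Txnip probe lay between 0.03 and 0.07 and the second between 0.02 and 0.09. Dim spots around the measured Mlxip probe were shifted by -0.11 and those around Klf10 by 0.05. The shifts were -0.07 and 0.02 for the Mlxipl probes and 0.06 for Arrdc4 probe A_55_P2101191. Their part in the ratios was not tested.

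**Figure D4:**
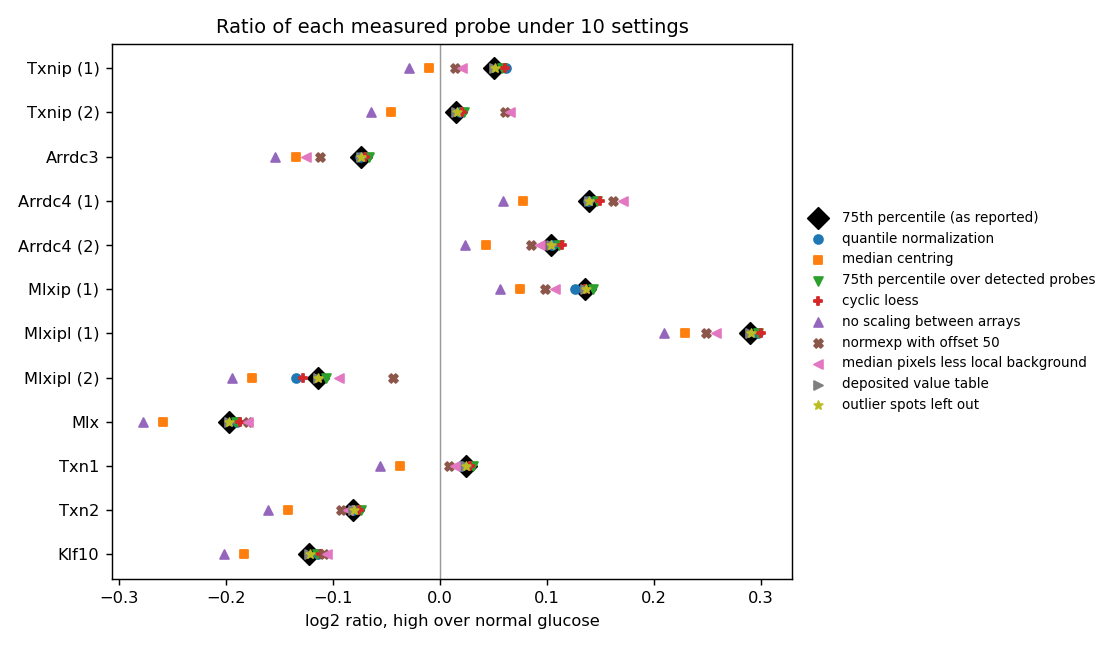
Log2 ratio of high over normal glucose of the 12 measured probes with the 75th percentile scaling reported here (black diamonds) and under 9 other settings (coloured symbols, named in the legend). The values with no scaling and with median centring lie to the left for every probe; the Txnip and Txn1 probes straddle 0 and the other 9 do not.

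Other genes of the pathway were read from 5 lists, 54 genes in all, by the brightest probe of each. Of the other alpha-arrestins 2 of 3 were measured and neither passed 1.2-fold, where 12.3% of all measured genes did, and 6.26% at signals of 512 to 4096. Arrdc1 had a log2 ratio of 0.05, with 0.34 on its other probe, and Arrdc2 had -0.01. Of 16 thioredoxin reductases, peroxiredoxins and related proteins all 16 were measured and none passed 1.2-fold. Of all measured genes 12.3% passed it, and 2.44% of those with signals above 4096. On this list 5 were above and 11 below 0, with a median of -0.03, where 6631 of 14176 measured genes were above 0. The values farthest from 0 were 0.18 for Msrb1, a methionine sulphoxide reductase that thioredoxin recharges, and -0.15 for Prdx4, the peroxiredoxin of the endoplasmic reticulum. Both thioredoxins and the measured genes of this list thus lay within 1.2-fold either way.

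Of 9 further genes of the MYC/MAX/MLX network, 8 were measured, with a list median of 0.01. Of these 1 passed 1.2-fold, or 12.5%, where 12.3% of all measured genes did, and it was lower in high glucose. That gene was Max, the partner of Myc and the Mxd proteins, with a signal of 13651 in high glucose and 18271 in normal glucose and a log2 ratio of -0.34. Of genes as bright as Max, with signals above 4096, only 2.44% passed 1.2-fold. Mxd3, a repressor of the network, had 0.22 from a dim signal of 49.2 in high glucose and 44.7 in normal glucose. Mxd1 had 0.04 by its brightest probe and -0.30 on its other probe. Max and Mlx, the small shared partners of the network, thus both had lower signals in high glucose, each on 1 measured probe. Myc itself had -0.04, a gene chosen after its value was seen.

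Of 20 further targets of the carbohydrate response element 16 were measured. Tkt was the only one at least 1.5-fold higher, where 1.62% of all measured genes were. None was 1.5-fold lower, where 1.19% were. On this list 7 had ratios above and 9 below 0, with a median of -0.03, where 6631 of 14176 measured genes were above 0. Tkt, transketolase of the pentose phosphate pathway, had a signal of 40748 in high glucose, against 25999 in normal glucose, a log2 ratio of 0.73. At 1.2-fold 1 was higher and 1 lower, or 12.5% of the list against 12.3% of all genes. The higher one, Tkt, had signals above 4096, where 2.44% of genes passed 1.2-fold. The lower one, Gckr, had signals below 128, where 40.8% passed. G6pc, Fgf21, Pnpla3 and Slc2a2, genes best known from liver, were not well above background on either array.

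The list of genes linked to Txnip comprised the ubiquitin ligases Itch and Nedd4l, the AMP kinase subunits Prkaa1 and Prkaa2, Foxo1 and Nlrp3. Nlrp3 is the inflammasome sensor to which Txnip binds. All 6 were measured and all 6 had ratios below 0, with a median of -0.07, where 7545 of 14176 measured genes were below 0. Nlrp3 passed 1.2-fold, at -0.26, from a dim signal of 41.5 in high glucose and 52.7 in normal glucose, within 1 SD between spots at that brightness. Of all measured genes with signals below 128, 40.8% passed 1.2-fold. Foxo1 had -0.10 and -0.05 on its 2 probes.

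**Figure D5:**
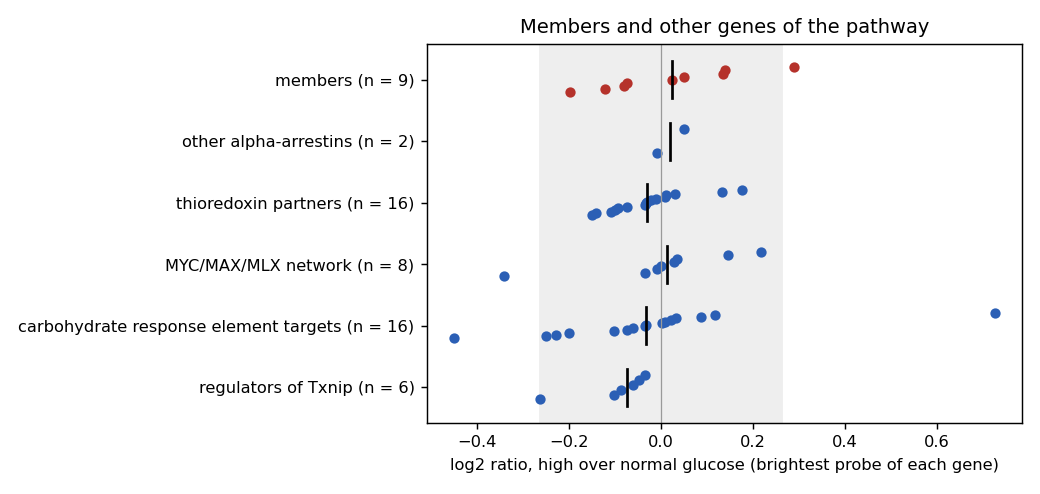
Log2 ratio of high over normal glucose of each measured gene, by its brightest probe, for the members (red) and 5 lists of other pathway genes (blue), with black bars at list medians and grey shading within 1.2-fold. The medians lie between -0.07 and 0.02. Tkt at 0.73, Max at -0.34 and Gckr at -0.45, a gene with a dim signal of 29.9 in high glucose and 43.2 in normal glucose, stand out of the shading. So do the member Mlxipl at 0.29 and, just past its edge, Nlrp3 at -0.26.

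The labelled cell type was set against marker genes. Of 10 pericyte markers 9 were measured, Kcnj8 not, with a summed signal, before scaling, of 108819 in high glucose and 118570 in normal glucose. Their scaled log2 ratios had a median of -0.10 and ran from -0.45 for Abcc9 to 0.58 for Rgs5, both dim. All 6 smooth muscle and all 6 fibroblast markers were measured too, summing to 629534 and 235798 in high glucose and 651084 and 259162 in normal glucose before scaling. After scaling, 6 of 6 smooth muscle markers had log2 ratios above 0, where 6631 of 14176 measured genes did. Their median was 0.09 and the highest, 0.81, was that of the dim Myocd. Before scaling, Acta2, Cnn1 and Tagln had lower signals in high glucose, and Myh11, Smtn and Myocd higher ones. Of the fibroblast markers 5 of 6 were below 0 after scaling, where 7545 of 14176 measured genes were. Their median was -0.12 and the lowest, -0.37, was that of Fap. The markers therefore did not separate pericytes from these cells. Of 7 endothelial markers 3 were measured, with Cdh5, Tek, Emcn and Cldn5 not well above background, and the sums were 7257 in high glucose and 7578 in normal glucose. Kdr alone gave 7075 of the sum in high glucose and 7379 in normal glucose. Of the markers on the array 4 of 5 immune, 2 of 4 epithelial and 3 of 4 Schwann cell genes were measured, with sums of 3497, 99.5 and 2625 in high glucose and 3248, 88.1 and 2890 in normal glucose. Their part in the members' ratios was not tested. In such bulk RNA, fewer cells of a type and less RNA per cell cannot be told apart.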

How the data were processed

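The deposited intensity values came, per the file headers, from 1-colour scans of an Agilent mouse array (design build mm9) read with Feature Extraction 11.5.1.1; the submitters' processing notes name 9.3.2.1. The processed signal was background-subtracted and detrended within each array, not scaled between arrays. The authors' deposited value table held the same linear intensity (55249 of 55249 single-spot probes within a relative tolerance of 0.0001), with medians of 48.9 for high and 49.6 for normal glucose.

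Log2 processed signals of gene spots were averaged per probe and each array's 75th percentile was subtracted. RefSeq accessions named 27509 of 55681 probes, 28172 had no match and 0 several. A gene was represented by its brightest probe and counted as measured if at least 0.5 of that probe's spots were well above background, unsaturated, on both arrays. With 1 array per condition no test was run, and called means past 2-fold. The shift of dim neighbours, a measure chosen after the data were seen, is the median log2 ratio of median pixels over spots within 2 rows and columns not well above background, less that over all such spots. The files used hold no mean spot signals, so normexp (limma 3.58.1, R 4.3.3) was run on median ones. The counting step was tested on simulated data.

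All members were named with every probe; of each pathway list, genes at least 1.5-fold different or otherwise the 2 farthest from 0. Gckr, Myc, Mxd1, Itch, Nedd4l, Prkaa1, Prkaa2, the markers and the unmeasured genes were named outside this rule. The members and lists were chosen with earlier results of these data known. Alternatives were other scalings, backgrounds, filters and probe rules.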

Additional observations from a re-analysis of the deposited data

How the results depend on the processing

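No paired analysis was possible because each condition had 1 array, and no array could be left out. The count of members at least 2-fold different was 0 under all 12 alternatives. The count at least 1.2-fold different, 1 as reported, was 0 with median centring, with normexp, from median pixels and with the median over probes, and 2 with no filter on dim probes. With no scaling it was also 1, but the gene was Mlx, at -0.28, in place of Mlxipl, at 0.21. The number of members above 0, 5 as reported, was 3 with median centring and 3 with no scaling between arrays. The members' median log2 ratio, 0.0242 as reported, was -0.0367 with median centring and -0.0557 with no scaling, where the median of all genes was -0.07 and -0.09. The count of all genes at least 2-fold different, 130 as reported, was 37 with normexp, whose offset shrinks ratios of dim genes, 1272 with no filter on dim probes, and 6 among genes brighter than the median gene, 0.0847% of these genes against 0.917% of all. Of 108 values of the 12 probes under 9 settings, 82 moved by less than the SD between spots and 26 by more. Median centring and no scaling each shift every probe by 1 common amount, and most of the 26 came from these. The cause of the rest was not tested. The 82 are no measure of robustness. The deposited value table held the same signals, and no member probe had an outlier flag to leave out. Signal over background limits Pklr and the second Mlxip probe, which gave no ratio.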

Other observations

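The pair of E-box-like copies seen before the start of Txnip was held by windows of 14 genes in the RefSeq table. Of the 13 genes other than Txnip 7 were measured. Their log2 ratios of high over normal glucose ran from -0.10 to 0.25 with a median of 0.02, and 0 of 7 passed 1.2-fold, where 12.3% of all measured genes did. With so few genes, not matched for brightness, 0 of 7 cannot be told apart from that share. These genes were chosen by sequence after the Txnip window had been read, and the values are a description. Of 1075 measured genes other than members with the E-box in a window, 8.93% passed 1.2-fold, also without a match for brightness. Their median log2 ratio was -0.01.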
